A study of Caenorhabditis elegans with 4 samples.

Results

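The peaks described here are the LIN-61 binding sites on the left part of the X chromosome of Caenorhabditis elegans, found by ChIP-seq, in which chromatin bound to an antibody is sequenced. X was cut into 3 parts of equal length. A peak belonged to this set when the centre between its first and last base lay at or before base 5906289 of X on genome build WS220. By that rule, 353 of the 13662 peaks of the authors' series list were members, which is 40.9% of the 864 peaks on X. The same rule gave 308 of 11744 peaks in the list of ChIP replicate 1 and 230 of 9436 in that of replicate 2. The rule uses position alone, though it was set with earlier results of these data known. The limit fell in a stretch without peaks: the last 2 series peaks before it were centred 89053.5 and 87857.5 bp to its left with scores of 9.0 and 3.21, and the first 2 beyond it 71808.5 and 74340.5 bp to its right with scores of 11.99 and 2.67.

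The animals were wild-type larvae of the laboratory strain N2 at the larval stage L3, kept at 20 degrees Celsius and labelled as a mixture of males and hermaphrodites, with no share of males given. There were 2 ChIP libraries made with the polyclonal rabbit antibody SDQ3520 against LIN-61, and 2 libraries of input DNA, for which no peaks were analysed here. Chromatin came from whole ground larvae, so each list sums over all tissues, and no library of animals without LIN-61 was analysed here. Whether the replicates were separate cultures is not stated, so their spread may be technical. The peak lists hold no read counts, so the depth of each library is unknown. The score of a peak is the authors' own value, with no quantity named for it, and was used to rank peaks within 1 list.

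LIN-61 is a chromatin protein built of MBT repeats. It reads methylation of lysine 9 on histone H3, found in heterochromatin, and belongs to the synthetic multivulva B genes, a class that holds back vulval fates in the larva. The X chromosome is carried in a single copy by males and as a pair by hermaphrodites, whose X-linked genes are turned down by dosage compensation. In the germ line, each chromosome has near 1 end a pairing center, a stretch rich in short repeats where zinc-finger proteins bind and lead homologues to pair in meiosis. The pairing center of X lies at its left end and is bound by HIM-8. The limits of the pairing center were not taken from these files, and no genome or annotation of build WS220 was used here, so sites are given by position, without sequence or gene names.

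Peaks were most crowded at the very end of the left part, and past that end stretch the density of peaks differed from that of the rest of X by no more than the spread between replicates. The first 500 kb held 122 series peaks, 126 in replicate 1 and 103 in replicate 2. These were 34.6% of the left-part peaks in the series list (95% Wilson interval 29.8 to 39.7), 40.9% in replicate 1 (35.6 to 46.5) and 44.8% in replicate 2 (38.5 to 51.2). The replicates averaged 42.8% ± 2.74 (SD, n = 2). The next 500 kb held 6 series peaks, 5 in replicate 1 and 4 in replicate 2. In each list the first of the 12 windows of 500 kb was thus the fullest of the left part in number of peaks and the second the emptiest. The next fullest was the one from 1500001 to 2000000, with 53 series peaks, 45 in replicate 1 and 26 in replicate 2, and the other 9 windows held 9 to 28, 7 to 25 and 5 to 20 peaks.

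Per Mb, the first 500 kb had 252 peaks in replicate 1 and 206 in replicate 2, against 33.7 and 23.5 in the remaining 5.41 Mb of the left part. The ratio of these densities was 7.49 in replicate 1 and 8.77 in replicate 2, which average 8.13 ± 0.91 (SD, n = 2). By covered length the contrast was larger: peaks covered 14.9% of the first 500 kb in replicate 1 and 10.3% in replicate 2, against 1.62% and 1.02% of the remainder. With 2 replicates a permutation test cannot give a p below 0.5, so these ratios are descriptions.

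**Figure D1:**
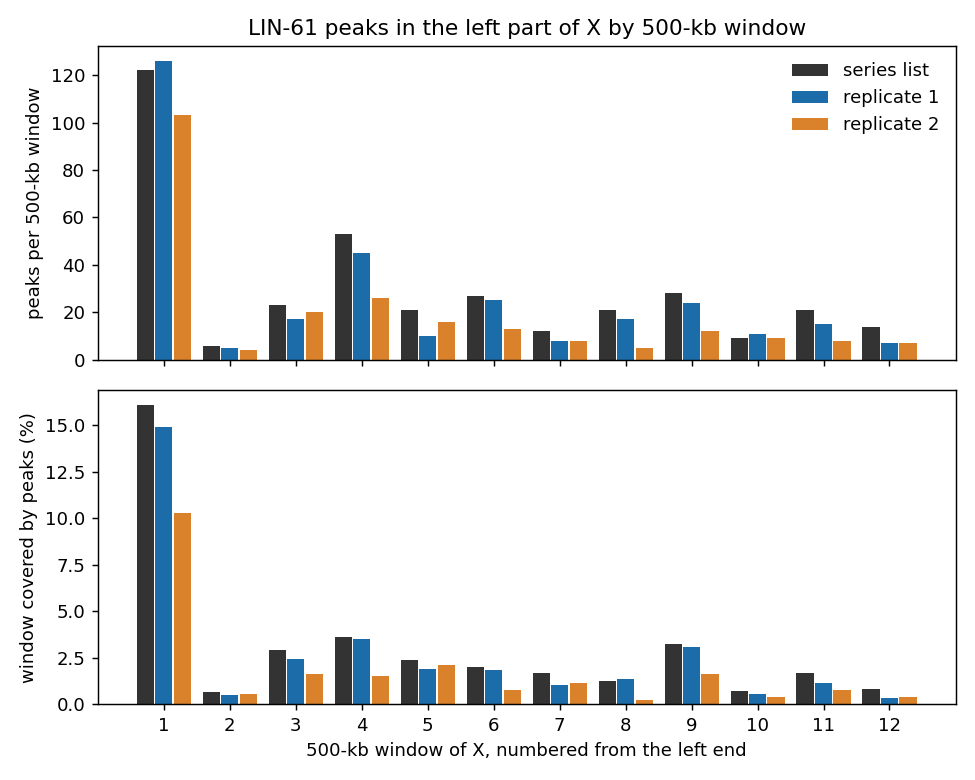
Number of LIN-61 peaks (upper panel) and percent of the window covered by peaks (lower panel) in the 12 windows of 500 kb that start in the left part of X, numbered from the left end, with 1 bar for the series list and 1 for each replicate list. Window 1 holds 122, 126 and 103 peaks in the series list, replicate 1 and replicate 2, and window 2 holds 6, 5 and 4; the 12th window reaches past the limit of the left part.

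The left part as a whole had 59.8 series peaks per Mb (exact Poisson 95% interval 53.7 to 66.3), against 43.3 on the rest of X (39.6 to 47.2). The left-part density depended on the list and on how peaks were counted. It was 38.9 per Mb in replicate 2 alone, against 24.7 on the rest of X in that list, and 35.7 for series peaks merged within 1 kb. The ratio was 1.38 in the series list, 1.65 in replicate 1 and 1.58 in replicate 2. In the series list it fell to 1.11 with peaks merged and to 1.09 against the right part of X alone. The replicates averaged 1.61 ± 0.05 (SD, n = 2). Without the first 500 kb the ratio to the rest of X was 0.99 in the series list, 1.07 in replicate 1 and 0.95 in replicate 2, with a mean of 1.01 ± 0.08 (SD, n = 2). The replicates then lay on both sides of 1, so a difference in density between the remaining left part and the rest of X was not seen beyond their spread.

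The rest of X was itself uneven, and the remaining left part stood between its parts. In replicate 1 the left part without its first 500 kb had 33.7 peaks per Mb, against 24.4 in the middle part and 38.8 in the right part of X. In replicate 2 the values were 23.5 in the remaining left part, against 19.1 in the middle part and 30.3 in the right part. The order was the same in both replicates. Covered length gave a like picture, with 1.62% of the remaining left part in replicate 1 against 1.15% of the middle and 1.70% of the right part, and 1.02% in replicate 2 against 0.74% and 1.35%.

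With the cut at 500 kb, such a step inward from a chromosome end was not seen at the other 11 ends of the nuclear chromosomes. At the left end of X, the outer 500 kb held 20.3 times as many series peaks as the next 500 kb, 25.2 times as many in replicate 1 and 25.8 times in replicate 2. At the other ends this ratio ran between 0.45 and 2.04 in the series list, 0.37 and 2.49 in replicate 1, and 0.37 and 2.58 in replicate 2. The second highest ratio in each list belonged to the left end of chromosome III, where the outer 500 kb held 132 peaks in replicate 1 and 111 in replicate 2 and the next 500 kb 53 and 43. These values describe 12 ends in the same libraries and were not tested. The cut lies past the inner edge of the dense stretch on X, so the size of the step may depend on it. No other cut was compared across the ends.

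The number of peaks in the outer 500 kb of the left end of X was in the range of autosome ends. Its 122 series peaks ranked 4 among the 12 ends, after the left end of I (156), the left end of III (141) and the right end of I (137), and in replicate 1 it shared rank 2 with the left end of I at 126 peaks each. In replicate 2 it ranked 2, with 103 peaks. The right end of X had 32 series peaks, 28 in replicate 1 and 16 in replicate 2, the fewest of the 12 ends in each list. The next 500 kb at the left end of X, with 4 to 6 peaks, had fewer in each list than the next 500 kb of any other end, where the right end of X was lowest with 18 series peaks.

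**Figure D2:**
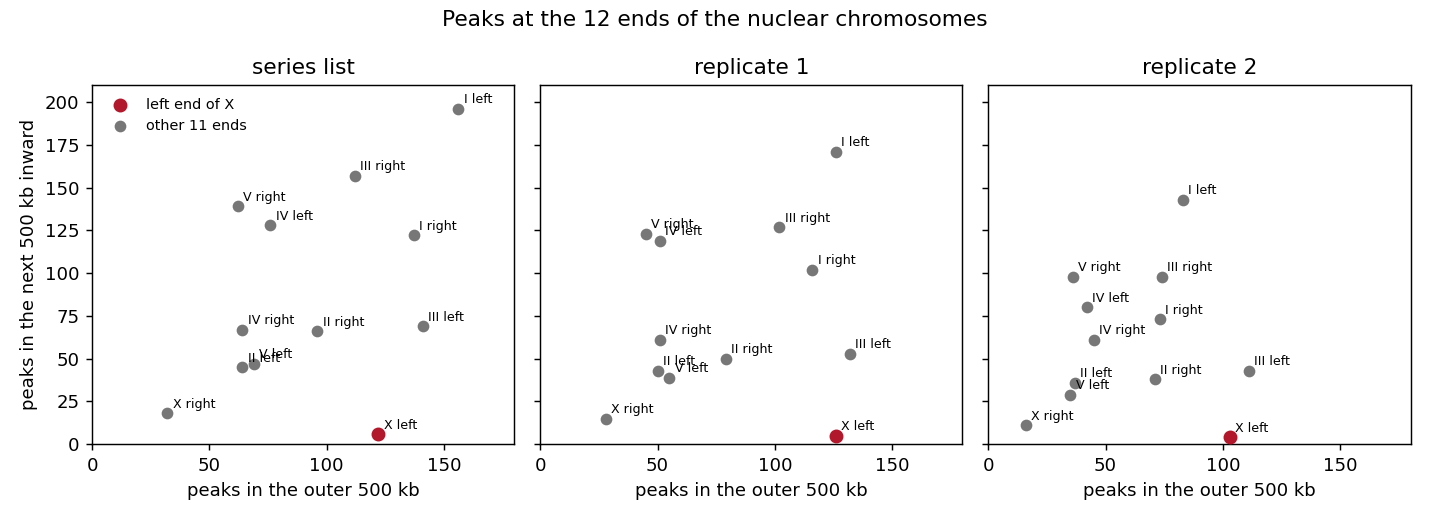
Peaks in the outer 500 kb (horizontal axis) against peaks in the next 500 kb inward (vertical axis) at the 12 ends of the nuclear chromosomes, with 1 panel for each peak list. The left end of X lies at 122 and 6 in the series list, 126 and 5 in replicate 1 and 103 and 4 in replicate 2, below the other ends on the vertical axis.

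Within the first 500 kb the peaks thinned out before its inner edge. In windows of 50 kb, the series list had 25, 25, 14 and 20 peaks in the outermost 200 kb, and then 11, 15 and 7 up to 350 kb. The 3 windows between 350 and 500 kb held 2, 3 and 0 series peaks, 2, 3 and 0 in replicate 1 and 1, 1 and 0 in replicate 2. The dense stretch thus ended near 350 kb from the chromosome end.

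The covered length was highest at 150001 to 200000, with 40.2% in the series list, 34.2% in replicate 1 and 27.7% in replicate 2. This window ranked 1 of all 50-kb windows on X in the series list and in replicate 1, and 2 in replicate 2. In windows of 100 kb, 1 to 100000 ranked 1 on X in all 3 lists, with 33.2% of its length covered in the series list, 29.2% in replicate 1 and 20.2% in replicate 2. Next came 100001 to 200000 with 27.4%, 25.5% and 18.5%, ranked 2 in all 3 lists. The window from 200001 to 300000 was covered to 13.8%, 13.3% and 9.54%, ranked 4 in the series list and replicate 1 and 5 in replicate 2.

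Outside the end stretch, the best covered 100-kb windows of the left part were 4100001 to 4200000 and 2000001 to 2100000. The first of these had 9.71% covered in the series list, 8.86% in replicate 1 and 7.08% in replicate 2, with 7 peaks in each list. The second had 7.49%, 8.50% and 6.99%, with 6, 6 and 5 peaks. Both owed their coverage largely to 1 wide peak, described below with the wide sites. Of the 60 windows of 100 kb that start in the left part, 9 had no series peak (15.0%), 14 none in replicate 1 (23.3%) and 18 none in replicate 2 (30.0%). On the rest of X these shares were 11.9%, 22.9% and 23.7% of 118 windows.

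The dense stretch was made of runs of neighbouring peaks. With peaks joined when no more than 5 kb lay between them, the 5 runs with most series peaks in the left part all lay in the first 300 kb. In replicate 1, a run of 11 peaks from 2632252 to 2639462 was also among its 5 fullest. The fullest held 34 series peaks in 47424 bp, from 18411 to 65834, and 16 of them overlapped a peak of both replicates, as did 45.3% of all series peaks. A run of 25 peaks spanned 47054 bp from 125158 to 172211, again with 16 peaks in both replicates. These ranked 1 and 2 in number of peaks among all such runs on X in the series list.

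The densest of these runs was a short one. From 84948 to 98699, a run of 10 series peaks covered 73.4% of its 13752 bp, and the replicate lists covered 69.5% (replicate 1, 9 peaks) and 57.4% (replicate 2, 12 peaks) of the same stretch. A run of 13 peaks from 271680 to 291845 was covered to 43.8% in the series list, 40.3% in replicate 1 and 29.2% in replicate 2. The fifth, from 180289 to 207509, had 11 series peaks, was covered to 35.4%, 30.6% and 24.8%, and held the second strongest peak of the left part.

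Neighbours were close in the end stretch. Of its 122 series peaks, 118 (96.7%) had another peak within 5 kb, against 162 of 231 (70.1%) in the remaining left part and 324 of 511 (63.4%) on the rest of X. The replicates gave 96.8% and 92.2% in the first 500 kb, against 70.3% and 63.8% in the remaining left part. The share rises with the density of peaks by itself, so it is no separate measure of clustering.

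Large peak-free stretches lay farther in. The longest in the series list was 471304 bp, from 3204137 to 3675440. In replicate 1 the stretch without peaks there was 559687 bp long, from 3115771 to 3675457, and in replicate 2 514947 bp, from 3116441 to 3631387, the longest in each list. The sparse zone next to the end stretch held the second longest in both replicates, 230548 bp from 576061 to 806608 in replicate 1 and 367569 bp from 576076 to 943644 in replicate 2. A list without counts cannot tell a stretch without binding from one without mappable reads.

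The few peaks of that sparse zone were not weak ones. Of the 6 series peaks between 500 kb and 1 Mb, 4 overlapped a peak of both replicates, and 5 were at or above the median score of the whole series list, as were 50.1% of all its peaks. The peak at 516108 to 517480, 1373 bp wide, scored 50.89 in the series list, 33.06 in replicate 1 and 61.93 in replicate 2. In replicate 2 that made it the fourth strongest of the left part. A second one at 943630 to 944458 scored 19.86, with 13.38 in replicate 1 and 24.15 in replicate 2. So few peaks allow no comparison of medians.

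Peaks of the first 500 kb were wider and scored higher than those of the remaining left part in each list. Their median width was 402 bp in replicate 1 and 350 bp in replicate 2, against 266.5 and 249 bp in the remainder, a difference of 118 ± 24 bp (SD, n = 2). Their median score was 9.37 in replicate 1 and 9.79 in replicate 2, against 6.91 and 6.26 in the remainder. In the series list the medians were 433 bp and 13.77 in the first 500 kb, against 264 bp and 6.64. The remaining left part lay close to the rest of X, whose series peaks had a median width of 242 bp and a median score of 6.71.

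For the left part as a whole, the median width exceeded that of the rest of X by 50 bp in the series list, 59.5 bp in replicate 1 and 17.5 bp in replicate 2. The replicate mean of 38.5 ± 29.7 bp (SD, n = 2) has a spread nearly as large as itself. The median score was higher by 1.12 in the series list, 1.00 in replicate 1 and 1.74 in replicate 2. Without the first 500 kb the score difference was -0.07 in the series list, 0.50 in replicate 1 and 0.04 in replicate 2, and the width difference was 22 bp, 17.5 bp and -7.5 bp.

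Strong peaks of the left part were mostly peaks of its end. Among the top 10% by score of the whole series list, which by ties made up 10.1% of all its peaks, there were 34 of the 353 left-part peaks (9.63%, 95% Wilson interval 6.97 to 13.2). They split into 24 of 122 in the first 500 kb (19.7%, 13.6 to 27.6) and 10 of 231 in the remainder (4.33%, 2.37 to 7.78). On the rest of X it was 20 of 511 (3.91%, 2.55 to 5.97). In replicate 1, 25 of 126 peaks of the first 500 kb were in the top 10% of their list (19.8%, against 10.1% of all peaks), and in replicate 2 it was 17 of 103 (16.5%, against 10.0%). The remaining left part had 4.40% and 3.94%. The left part as a whole was thus near the share of all peaks, with its end above and its remainder below that share in each list.

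Wide peaks, of 2 kb or more, were few. The series list had 10 in the left part (2.83%, against 4.57% of all its peaks), of which 6 lay in the first 500 kb. There they made up 4.92% of the peaks, near the share of all. Replicate 1 had 8 (2.60%, against 3.88%), with 4 in the first 500 kb. Replicate 2 had 3 (1.30%, against 2.26%), with none in the first 500 kb.

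Score and width were correlated across peaks. In the left part the correlation of score with the logarithm of width had a Pearson's r of 0.65 over 353 series peaks, 0.61 over 308 in replicate 1 and 0.56 over 230 in replicate 2, and Spearman's rho was 0.66, 0.65 and 0.67. These values are across peaks that share a library, and peaks are not independent replicates.

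**Figure D3:**
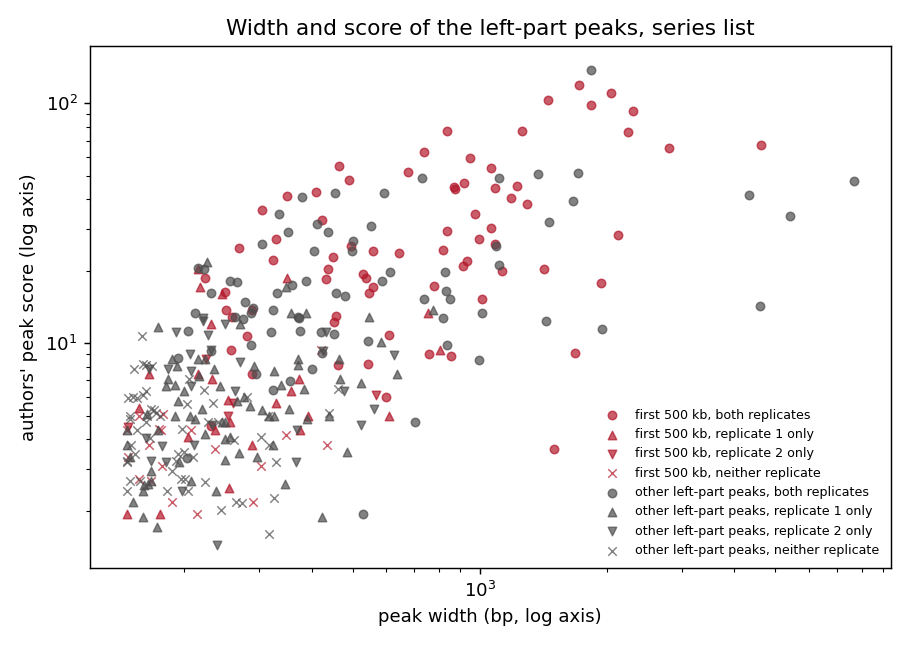
Width in bp (horizontal log axis) and the authors' score (vertical log axis) of the 353 left-part peaks of the series list, in red for the first 500 kb and grey for the other peaks, with the symbol giving the replicates a peak overlaps. The strongest peak, of 138.26, is grey, the next 11 by score among those with both replicates are red, and the peaks found in neither replicate sit at the lower left.

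The strongest peak lay outside the end stretch. The peak at 1795359 to 1797188, 1830 bp wide, scored 138.26 in the series list and ranked 14 of all 13662 peaks. It scored 191.33 in replicate 1, where it ranked 8, and 100.37 in replicate 2, where it ranked 28. It was the strongest of the left part in all 3 lists. Its replicate 2 peak was narrow, 453 bp against 1979 bp in replicate 1, and covered 24.8% of the series peak. A smaller peak followed at 1798105 to 1798833 with a series score of 48.86, 55.2 in replicate 1 and 15.04 in replicate 2.

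The next 11 of the 12 strongest series peaks that overlapped a peak of both replicates all lay in the first 200 kb. The peak at 180289 to 182005 scored 119.82 (rank 58), 130.3 in replicate 1 and 51.91 in replicate 2. The peak at 155000 to 157044 scored 110.76 (rank 101), with 102.4 in replicate 1 and 71.93 in replicate 2, and was the second strongest of the left part in replicate 2. The peak at 87064 to 88516 scored 103.14 (rank 139), with 119.39 and 49.64 in the replicates. These 3 sites were between 1453 and 2045 bp wide in the series list, and the replicate peaks covered 76.5% to 99.3% of them.

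A close group stood between 155 and 196 kb. The peak at 166555 to 168387 scored 98.37 in the series list, 82.1 in replicate 1 and 61.86 in replicate 2. The peak at 187912 to 190209 scored 93.41, with 178.34 in replicate 1 and 62.23 in replicate 2. Farther along, 194665 to 195925 scored 76.42 and 192890 to 193625 scored 62.96. The wide peak at 159237 to 162037 scored 65.33 and was broken into 4 peaks in replicate 1 and 3 in replicate 2. Toward the end of the chromosome, the set held 47089 to 47924 (score 76.42), 9760 to 12003 (76.04) and 89090 to 93718 (66.85). Ranks of these 12 sites in the replicate lists ran from 8 to 819 in replicate 1 and from 28 to 1166 in replicate 2.

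The very widest peaks lay mostly outside the end stretch. Of the 5 widest in the series list, 4 lay outside the first 500 kb, but of the 10 peaks of 2 kb or more, 6 lay inside it. The widest, 7678 bp at 4139195 to 4146872, scored 47.5, and appeared as 2 peaks in replicate 1 and 5 in replicate 2, which covered 98.4% and 87.6% of it. The 4601 bp peak at 1136175 to 1140775 scored 14.33 and fell into 4 pieces in replicate 1 and 5 in replicate 2. The 4333 bp peak at 3073369 to 3077701 scored 41.36 and fell into 3 pieces in each. The 4629 bp peak at 89090 to 93718 was the 1 in the end stretch.

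The second widest peak differed in strength between replicates. The 5406 bp peak at 2058531 to 2063936 had a series score of 33.79 (rank 1736) and was whole in both replicates, with widths of 6135 bp and 5349 bp. It scored 148.97 in replicate 1, rank 56 of its list, and 18.47 in replicate 2, rank 1756. Position and width were alike in the replicates and the rank was not.

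Among the 20 strongest left-part peaks of replicate 1, 5 other sites ranked 2411 or lower in replicate 2. They were picked out after their values were seen. At 142737 to 143745 replicate 1 scored 141.1 (rank 73), replicate 2 14.32 (rank 2411) and the series list 22.01 (rank 2899). At 168530 to 168964 the scores were 114.32 (rank 152), 9.36 (rank 3852) and 18.57 (rank 3427). At 2002710 to 2004057 they were 80.25 (rank 356), 12.79 (rank 2766) and 12.75 (rank 4952). These 3 sites, and the site at 289896 to 291921 with ranks of 815, 3346 and 3589, had a series rank nearer to that of replicate 2. The site at 330279 to 331455, with ranks of 800, 3824 and 1340, had one nearer to replicate 1. A difference the other way was found among the 20 strongest left-part peaks of replicate 2. The site at 4523984 to 4524260 scored 33.24 in replicate 2 (rank 723), 10.91 in replicate 1 (rank 4457) and 42.38 in the series list (rank 1250). The next lowest replicate 1 rank among these 20 was 1837. All 20 strongest left-part peaks of each replicate nevertheless overlapped a peak of the other replicate and of the series list.

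Across 154 pairs of overlapping left-part peaks, each used once, the scores of the replicates had a Spearman's rho of 0.75 and a Pearson's r of 0.72. The rho was 0.78 in the first 500 kb and 0.66 in the remainder, over 77 pairs each, and 0.55 over 173 pairs on the rest of X. Pearson's r did not show this difference within the left part, with 0.71 in the first 500 kb and 0.71 in the remainder, and was 0.67 on the rest of X. Widths of the pairs had a rho of 0.72 in the left part, with 0.72 in its first 500 kb and 0.73 in the remainder, and 0.61 on the rest of X. Covered length in the 60 windows of 100 kb had a rho of 0.78 between replicates, and 0.74 over the 55 windows without the first 500 kb. These are descriptions across sites of 2 libraries.

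**Figure D4:**
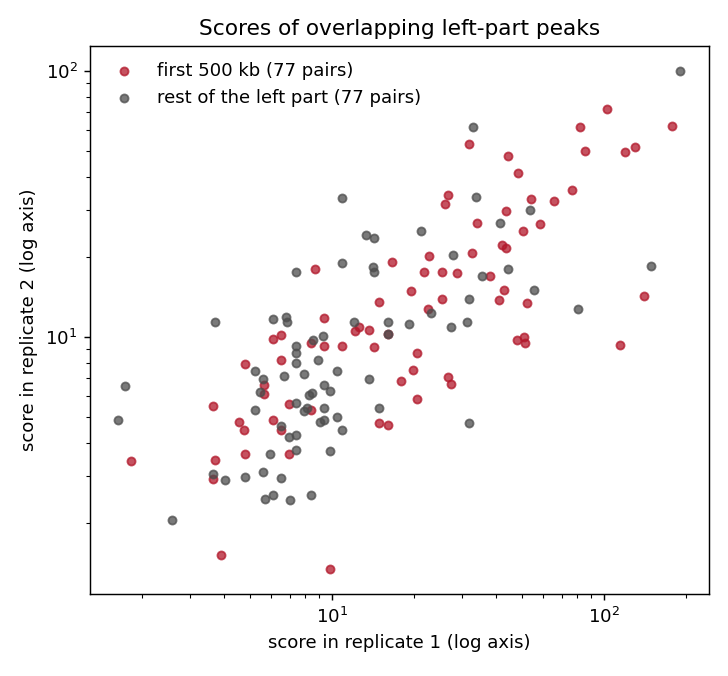
Score in replicate 1 (horizontal log axis) and in replicate 2 (vertical log axis) of the 154 pairs of overlapping left-part peaks, in red for 77 pairs in the first 500 kb and grey for 77 pairs in the remainder. Scores rise together, with a Spearman's rho of 0.75, and a few replicate 1 peaks above 80 have a replicate 2 score below 20.

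Replicate overlap was higher in the end stretch than in the remaining left part, where peaks were also sparser. A shared peak needs only 1 bp of overlap. Peaks covered 14.9% of the first 500 kb in replicate 1 and 10.3% in replicate 2, against 1.62% and 1.02% of the remainder. The shares here and below rise with covered length by themselves, and the overlap that covered length alone would give was not computed. Their difference between the parts is thus no separate measure of agreement between replicates. Of the 353 left-part series peaks, 146 (41.4%, 95% Wilson interval 36.3 to 46.6) had a peak of both replicates over them, near the 45.3% of all series peaks. In the first 500 kb it was 73 of 122 (59.8%, 51.0 to 68.1) and in the remainder 73 of 231 (31.6%, 25.9 to 37.9), with 164 of 511 (32.1%, 28.2 to 36.3) on the rest of X. A further 97 left-part peaks overlapped replicate 1 alone (27.5%) and 34 overlapped replicate 2 alone (9.63%). The 76 found in neither replicate (21.5%, against 20.3% of all series peaks) were weak and narrow, with medians of 4.10 for score and 184.5 bp for width. Peaks in both replicates had medians of 19.86 and 545.5 bp.

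Overlap followed score. With the whole series list cut into 4 equal parts by score, 77 of 80 left-part peaks in the strongest part overlapped both replicates (96.3%), against 98.7% of all peaks in that part. In the weakest part it was 4 of 94 (4.26%), against 1.32%. Within these parts, the shares were 96.1% in the first 500 kb and 96.6% in the remainder in the strongest part, and 72.0% (95% Wilson interval 52.4 to 85.7) and 60.7% (48.1 to 71.9) in the next. In the lower parts they were 21.1% (8.51 to 43.3) in the first 500 kb and 8.11% (3.77 to 16.6) in the remainder, and in the weakest 7.41% (2.06 to 23.4) and 2.99% (0.82 to 10.2). Outside the strongest part the first 500 kb had the higher share, with overlapping intervals in each. The end stretch had 51 of its 122 peaks in the strongest part and the remainder 29 of 231.

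**Figure D5:**
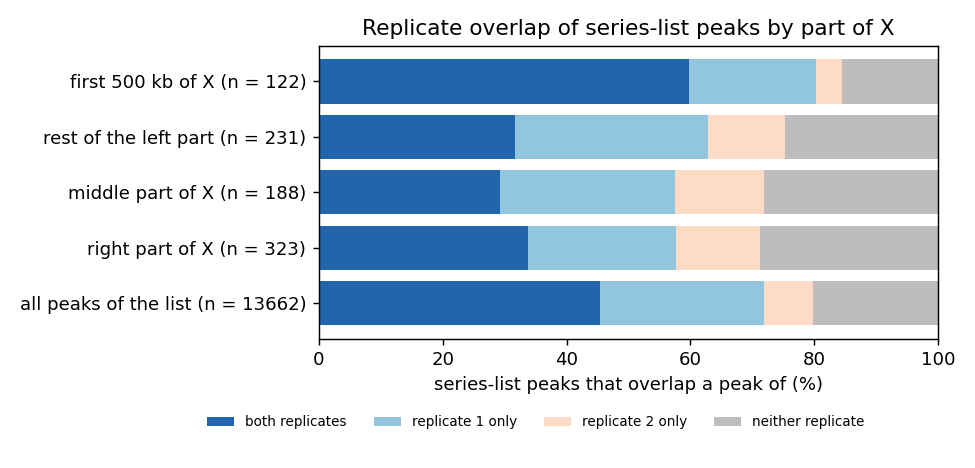
Share of series-list peaks (horizontal axis, percent) that overlap a peak of both replicates, of replicate 1 alone, of replicate 2 alone or of neither, for 2 parts of the left part, the other parts of X and the whole list. The share with both replicates is 59.8% in the first 500 kb and 31.6% in the rest of the left part, against 45.3% of all peaks.

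From the side of the replicates, 158 of 308 left-part peaks of replicate 1 had a partner in replicate 2 (51.3%, 95% Wilson interval 45.7 to 56.8), against 59.1% of all its peaks. In replicate 2, 183 of 230 had a partner in replicate 1 (79.6%, 73.9 to 84.3), against 85.0%. In the first 500 kb these shares were 61.9% (53.2 to 69.9) and 93.2% (86.6 to 96.7), and in the remainder 44.0% (36.9 to 51.2) and 68.5% (60.0 to 75.9). On the rest of X they were 49.9% and 66.4%. In replicate 1, the median score of left-part peaks was 12.11 where replicate 2 had a partner, against 5.2 where it had none.

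Replicate 1 peaks missing from the series list were more frequent on X than in the list as a whole. In the left part 53 of 308 replicate 1 peaks (17.2%, 95% Wilson interval 13.4 to 21.8) overlapped no series peak, with 57 of 373 (15.3%) on the rest of X and 7.44% of all replicate 1 peaks. Of the 53, 21 lay in the first 500 kb, where they were 16.7% of 126 replicate 1 peaks, against 17.6% in the remainder. The 53 had a median score of 4.80. In replicate 2 it was 9 of 230 (3.91%, 2.07 to 7.27) in the left part, with 22 of 292 (7.53%) on the rest of X and 1.66% of all. It was none of the 103 peaks of the first 500 kb and 9 of 127 (7.09%) in the remainder. Against the rest of X, the left-part share was thus higher in replicate 1 and lower in replicate 2. How the series list was made from the replicates is not stated, so this share describes the lists.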

How the data were processed

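Per the labels' protocols, ground frozen larvae were crosslinked with EGS and then EGS plus formaldehyde, and sonicated chromatin was immunoprecipitated and made into PCR-amplified libraries. Per the file headers, the deposited lists are peaks called with MACS on build WS220. Not given in the sources used here are the MACS version, its threshold and control, the aligner and any read filter. The authors deposited, for every peak, its first and last base and a score whose quantity they do not name.

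Peaks were placed by their centre, counting from 1. The end of X was the last base of any peak, 17718866. A shared peak overlapped by at least 1 bp. Beside most shares of members stand the same shares of all peaks of the list, but not under the alternative settings. Intervals are 95% Wilson or exact Poisson intervals, cover counting error alone and treat peaks as independent. No test across samples was run, since 2 replicates allow no permutation p below 0.5. Alternatives were other overlap rules, stronger peaks, merged peaks, covered length, other limits and each replicate list. Named sites are the 12 strongest with both replicates, the 5 widest, the 5 best covered windows, the 5 fullest runs and the longest gap. The members, stretches and lists were chosen with earlier results of these data known. Overlap and merging were tested on simulated data. Values were computed in Python 3.11.15 with pandas 2.3.3 and numpy 2.4.6, intervals with statsmodels 0.14.6 and scipy 1.17.1, and figures with matplotlib 3.10.9.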

Additional observations from a re-analysis of the deposited data

How the results depend on the processing

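The first 500 kb set most of the contrast with the rest of X. Without it, the density was 42.7 peaks per Mb, the ratio to the rest of X 0.99, the median score difference -0.07, a change of sign, and the shares with both replicates, with a replicate 2 partner and with a replicate 1 partner 31.6%, 44.0% and 68.5%. In the replicate lists alone, the density ran from 38.9 to 52.1 per Mb, the ratio from 1.58 to 1.65, the share in the first 500 kb from 40.9% to 44.8%, the width difference from 17.5 to 59.5 bp and the score difference from 1.00 to 1.74. Among peaks at or above the median score, the density was 28.1, the ratio 1.69, the share in the first 500 kb 45.8%, the width difference 114.5 bp, the score difference 4.05, and the overlap shares 79.5%, 74.8% and 89.7%. Among series peaks with both replicates, these were 24.7, 1.78, 50.0%, 122 bp and 3.97. Merging peaks within 1 kb gave 35.7 per Mb, a ratio of 1.11, 27.0% and 163 bp. By covered length the ratio was 1.66 and the share 43.7%. Against the right part alone the ratio was 1.09, and against the middle part 1.88. The first 250 kb held 26.9% of the peaks. With 50% of the peak covered, the shares with both replicates and with a replicate 2 partner were 34.0% and 43.5%; with 50% of both peaks overlapping, the 3 shares were 27.5%, 36.4% and 48.7%. With the replicate 1 list trimmed by score to the length of the replicate 2 list, a setting chosen after seeing the data, 58.7% of its left-part peaks had a partner. For stronger peaks, the other overlap rules and the trimmed list, the same shares of all peaks were not computed. These shares thus describe the left part alone. In the strongest score part and the next, 98.7% and 67.1% of all series peaks overlapped both replicates, against 96.3% and 64.0% of left-part peaks. In all, 13 values stayed within the replicate spread or interval. They include the density of 52.1, the width difference of 59.5 bp and the score difference of 1.00 in replicate 1 alone, given above. They include the width difference of 22 bp without the first 500 kb and the share of 36.3% for the first 1 Mb. They include the share with a replicate 1 partner, 75.7% with 50% of the peak covered and 74.8% with the trimmed replicate 1 list. They also include every value for peaks lying whole in the left part. That setting could change nothing, since no series peak crossed the limit. Another was the count of the 12 strongest sites that keep both replicates at 50% coverage, which was 11. The exception is the strongest, at 1795359 to 1797188. The cause of the shifts was not tested. No paired analysis was possible because no input peaks, which the replicate numbers would pair with the ChIP peaks, were analysed here; left part and rest of X were compared within each replicate list. Depth is unknown.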
